A study of Mus musculus with 2 samples.

Results

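The genes described here encode telomerase and the proteins that build and hold its RNA: Terc, Tert, Dkc1, Nop10, Nhp2, Gar1, Naf1, Wrap53 and Shq1. They were chosen by name, as 9 of the 38458 gene columns of the deposited tables, and all 9 had a column. Each was followed in mouse embryonic stem cells (Terc-/-) of the line DKO741, which was made from E14 cells by replacing both Terc alleles with a targeting construct. Single cells were encapsulated by inDrops, in which droplets barcode each cell and unique molecular identifiers (UMIs) count its transcripts. PD100 is the library harvested at passage 100 as labelled, from cells not yet maintained by alternative lengthening of telomeres (ALT), and PD800 the library harvested at passage 800, from ALT survivors of the same line. The paper uses PD for population doubling, while the labels give these time points as passages. Each group was 1 library, without a Terc wild-type single-cell library among those analysed here. Feeder cells were used to maintain the stocks and the experiments were done without feeders, as the paper states. With 1 library per group no test was possible, every interval given is a 95% interval for counting error only, and the passage and the library preparation cannot be told apart.

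Telomerase copies a short template in Terc onto chromosome ends through TERT, its reverse transcriptase. Terc ends in a hairpin domain of the H/ACA kind, which it shares with the small nucleolar and Cajal body RNAs that guide pseudouridylation of ribosomal and spliceosomal RNA. Such RNAs are held by the same protein core of dyskerin (Dkc1), NOP10, NHP2 and GAR1, so most of these proteins serve many RNAs besides Terc and remain in use in cells without it. SHQ1 chaperones newly made dyskerin, NAF1 occupies the position of GAR1 while the particle is assembled, and WRAP53, also called TCAB1, brings particles to Cajal bodies.

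Cells with 1000 UMIs or more and at most 20% mitochondrial UMIs were kept. This left 814 of 1291 PD100 barcodes with 1826233 UMIs and 900 of 1666 PD800 barcodes with 2580963 UMIs. PD100 cells had a median depth of 2151 UMIs and a median mitochondrial share of 1.23%, and PD800 cells 2701.5 UMIs and 4.42%. The kept cells of the libraries shared 8 barcode sequences. All 13 embryonic stem cell markers examined were detected in both libraries, and their UMIs, scaled to a common library total (CPM), summed to 12200 in PD100 and 12800 in PD800. The 12 extraembryonic endoderm markers summed to 429 CPM in PD100 and 32.5 CPM in PD800, where Gata6 was at 0. The 8 feeder fibroblast markers summed to 14.2 and 12.4 CPM, with Col1a1 and Lum at 0 in PD100 and Dcn and Pdgfrb at 0 in PD800.

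The RNA that both groups lack is shown first, since it is the client that links these proteins to telomeres. Terc lies on the minus strand of chromosome 3 (GRCm38, chr3:96414437-96414859) as a single annotated RNA of 423 bases in GENCODE M21. The first 60 bases of this annotated RNA hold the telomere template, the run of 8 bases in capitals at positions 29 to 36. Its last 60 bases end in the ACA trinucleotide that names the H/ACA class, in capitals at positions 418 to 420. Positions count from the annotated start, and where the mature RNA begins was not examined. Both stretches are written 5′ to 3′ as DNA from the reference, not from the reads.
Terc, first 60 bases: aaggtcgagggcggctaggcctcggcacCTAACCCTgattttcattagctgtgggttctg
Terc, last 60 bases: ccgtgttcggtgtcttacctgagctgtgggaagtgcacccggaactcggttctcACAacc

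No Terc UMI was counted in either library. At these depths a count of 0 allows up to 1.64 CPM in PD100 and 1.16 CPM in PD800, the level of 3 counts, which is a one-sided limit. The upper ends of the two-sided Poisson intervals used for the other genes were 2.02 and 1.43 CPM. The mature RNA has no long poly(A) tail and the capture was through poly(A), so the count of 0 is a weak check of the deletion. The same limit showed in the other H/ACA RNAs. The 49 columns named Snora or Scarna held 23 UMIs in PD100 (12.6 CPM, 7.98 to 18.9) and 21 UMIs in PD800 (8.14 CPM, 5.04 to 12.4), in 7 and 6 of the columns. What these RNAs did between the passages was therefore not detectable at this depth. Tert, on chromosome 13, was at the edge of detection with 2 UMIs in PD100 and 1 UMI in PD800. Its ratio of PD800 to PD100 was 0.354 with a counting interval from 0.006 to 6.8, which fixes no direction.

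The other members were measured by 71 to 5569 UMIs per library. Scaled to the length of the longest transcript, Nhp2 was the most abundant, at 2930 CPM per kilobase in PD100 and 1520 in PD800. Nop10 followed at 226 and 558, then Gar1 at 193 and 226, and Dkc1 at 78.5 and 54.9. Naf1 (24.7 and 9.2), Wrap53 (24.3 and 16.2) and Shq1 (6.43 and 5.29) were the least abundant of the detected proteins' genes, above Tert at 0.254 and 0.0898 CPM per kilobase. On this scale the counting intervals of Nop10 (206 to 248) and Gar1 (176 to 212) overlapped in PD100 and were apart in PD800 (531 to 586 and 210 to 243). Transcript ends were captured, so that scaling to length may overstate short genes. In CPM without the length, Dkc1 (199 to 243), Nop10 (228 to 275) and Gar1 (224 to 270) overlapped in PD100. In PD800 they were apart (139 to 170, 588 to 649 and 267 to 309). The order of Naf1, Wrap53 and Shq1 also depended on the length. Per kilobase, Naf1 (20.7 to 29.3) and Wrap53 (19.4 to 30.1) overlapped in PD100 and were apart in PD800 (7.19 to 11.6 and 12.8 to 20.2). In CPM without the length they were apart in PD100 (62.0 to 87.5 and 36.7 to 56.9) and overlapped in PD800 (21.5 to 34.7 and 24.2 to 38.1), where Shq1 was the highest of these 3 genes. No order among them is therefore read.

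**Figure D1:**
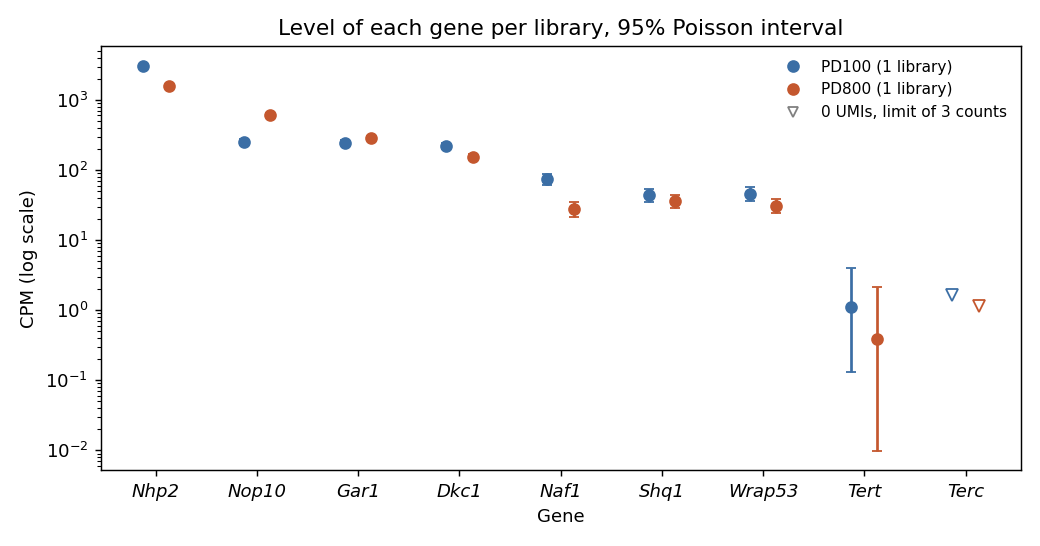
CPM of each gene (log axis) in the PD100 library (blue) and the PD800 library (orange), with 95% Poisson intervals of the summed UMIs. Nop10 went from 251 to 618 CPM and Nhp2 from 3050 to 1580 CPM, Tert had at most 2 UMIs, and the open triangles mark the limit that a Terc count of 0 allows.

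The genes of the protein core moved apart between the libraries. Nop10, which encodes the small subunit that packs against the catalytic domain of dyskerin, was 2.47-fold higher in PD800 (2.22 to 2.74), with 458 UMIs in PD100 (251 CPM) and 1596 in PD800 (618 CPM). Nhp2, whose product binds the guide RNA, was lower, with 5569 UMIs (3050 CPM) in PD100 and 4084 (1580 CPM) in PD800, a 1.93-fold difference (1.85 to 2.01). Dkc1, the pseudouridine synthase itself, had 402 UMIs (220 CPM) and 397 (154 CPM), 1.43-fold lower in PD800 (1.24 to 1.65). Gar1, the subunit that marks the mature particle, had 449 UMIs (246 CPM) and 742 (287 CPM), 1.17-fold higher (1.04 to 1.32). Thus 2 of the 4 core genes were higher in PD800 and the other 2 were lower. None of the 4 intervals reached 1, but they hold counting error only. Gar1 came closest to 1, and its log2 ratio was 0.06 in cells with 2000 to 4000 UMIs, beside 0.23 in all kept cells.

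These ratios stand against a shift of the whole table. A minimum of 50 UMIs, both libraries added, left 6984 tested genes. Their median log2 ratio of PD800 to PD100 was -0.34, so that most of them were lower in PD800 when libraries were scaled to their totals. Relative to that median, the log2 ratio was 1.64 for Nop10, 0.57 for Gar1, -0.18 for Dkc1 and -0.60 for Nhp2. Nop10 ranked 477 of 6984 by its ratio, above 93.2% of the tested genes. Nhp2 was lower than 80.7% of them, Dkc1 lower than 59.7%, and Gar1 lower than 24.9%. Dkc1 thus lay close to the middle of the table, and its lower CPM in PD800 was near what the typical gene showed.

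Outside the core, Naf1 was lower, while Wrap53 and Shq1 lay near the typical gene. Naf1 had 135 UMIs in PD100 (73.9 CPM) and 71 in PD800 (27.5 CPM), which made it 2.69-fold lower in PD800 (2.0 to 3.63) and lower than 93.5% of the tested genes. Wrap53 had 84 UMIs (46.0 CPM) and 79 (30.6 CPM), a 1.5-fold difference with a wide interval (1.09 to 2.07). Shq1 had 80 UMIs (43.8 CPM) and 93 (36 CPM), and its interval of 0.603 to 1.12 for the ratio of PD800 to PD100 included 1. Relative to the median of all genes, the log2 ratio was -1.08 for Naf1, -0.25 for Wrap53 and 0.06 for Shq1. Wrap53 was lower than 63.6% of the tested genes and Shq1 lower than 47.1%. In summed libraries, fewer cells with a transcript and fewer copies per cell cannot be told apart, which the counts per cell given further on address only in part.

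Of the 9 members, 7 reached 50 UMIs over both libraries, and Terc and Tert did not. Of these 7, 1 (Nop10) was at least 2-fold higher in PD800, where 9.22% of all tested genes were, and 1 (Naf1) was at least 2-fold lower, where 16.9% were. At 1.5-fold the number higher was still 1 (15.2% of tested genes), and 3 were lower (Nhp2, Naf1 and Wrap53, against 36.6% of tested genes). Wrap53 lay at this limit, and the number lower ran from 2 to 4 under other processing. Relative to the median of all genes, Nop10 was still the 1 gene at least 2-fold higher (13.9% of tested genes) and Naf1 the 1 gene at least 2-fold lower (7.79%). Numbers this small are near the shares of the whole table. The members' median log2 ratio was -0.52, beside -0.34 for all tested genes, and 2 of the 7 were above 0.

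**Figure D2:**
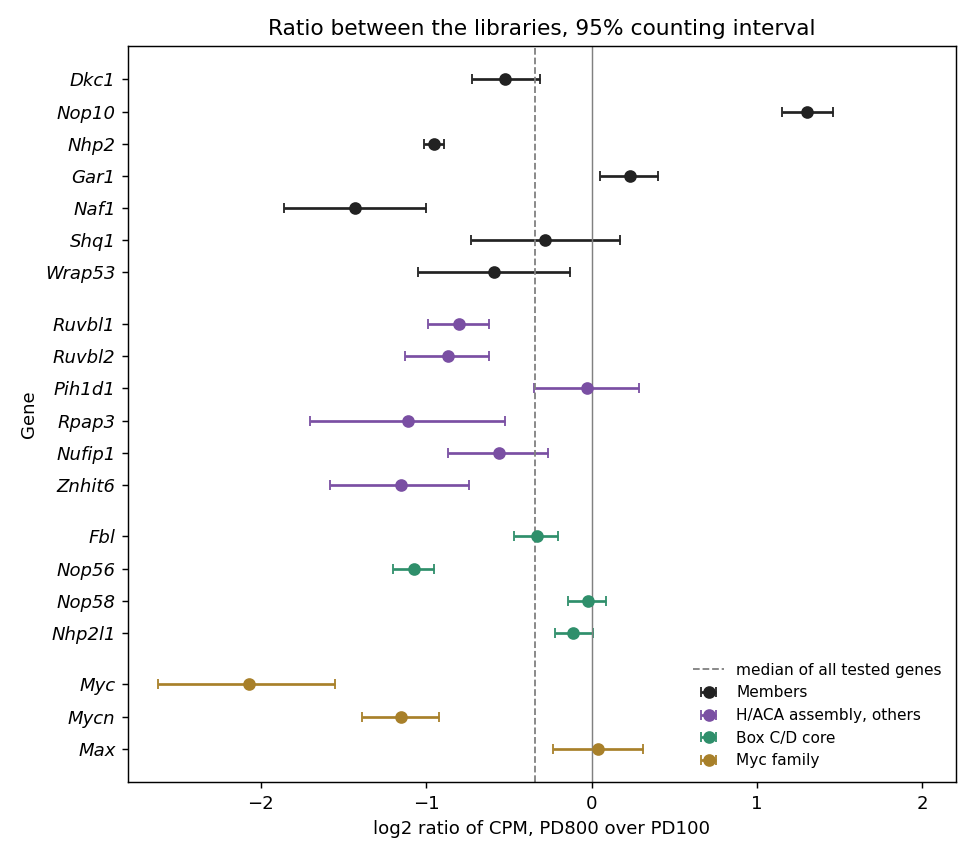
Ratio of PD800 to PD100 CPM on a log2 axis, with 95% counting intervals, for the 7 tested members (black), the other assembly factors (purple), the box C/D core (green) and the Myc family (ochre). The dashed line is the median of all tested genes at -0.34, and Nop10 at 1.30 lies farthest to its right.

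Ratios between members do not depend on how the libraries were scaled, since both genes come from the same cells. The 4 core genes together had nearly equal sums, 6878 UMIs in PD100 and 6819 in PD800, but their make-up differed. Nop10 made up 6.66% of these UMIs in PD100 (6.08 to 7.27) and 23.4% in PD800 (22.4 to 24.4). Nhp2 made up 81.0% (80.0 to 81.9) in PD100 and 59.9% in PD800 (58.7 to 61.1), whereas Gar1 went from 6.53% to 10.9%. For Dkc1 the PD100 share of 5.84% (5.3 to 6.43) and the PD800 share of 5.82% (5.28 to 6.4) were alike within counting error. These are shares of UMIs, with no correction for transcript length, so that they show the difference between libraries and not the make-up of the particle.

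**Figure D3:**
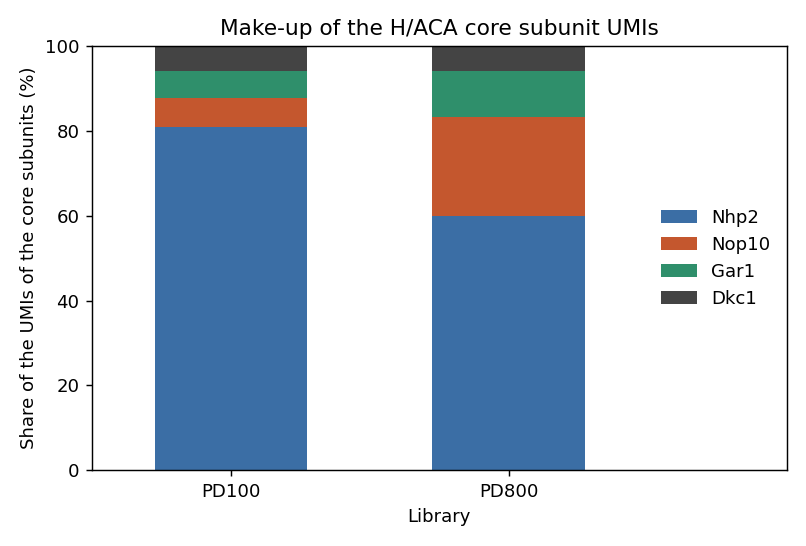
Share (%) of the UMIs of the 4 H/ACA core genes that each gene took in the PD100 and PD800 libraries (6878 and 6819 UMIs). The Nop10 segment goes from 6.66% to 23.4% and the Nhp2 segment from 81.0% to 59.9%, while the Dkc1 segment keeps 5.84% and 5.82%.

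The pairs of genes whose proteins work together were compared in the same way. For each Naf1 UMI there were 3.33 Gar1 UMIs in PD100 (2.74 to 4.06) and 10.5 in PD800 (8.18 to 13.5). The ratio of the mature subunit's gene to that of its assembly counterpart was thus 3.14-fold higher in PD800 (2.28 to 4.35). Against Dkc1, Gar1 was 1.67-fold higher (1.39 to 2.01) and Naf1 was at 0.533 times its PD100 value (0.381 to 0.741). Nop10 per Nhp2 was 4.75-fold higher in PD800 (4.25 to 5.32), and Nop10 per Dkc1 3.53-fold (2.96 to 4.21). By contrast, Shq1 per Dkc1, the chaperone and its client, was 1.18-fold (0.836 to 1.66) and Wrap53 per Dkc1 was 0.952-fold (0.67 to 1.35), with intervals on both sides of 1. Changes within those intervals, up to about the size of their ends, were not detectable at this depth.

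Because PD800 cells were deeper, the share of cells with a UMI was compared after thinning each cell to 1000 UMIs. Nop10 was found in 20.1% of PD100 cells (17.4 to 23.1) and in 42.4% of PD800 cells (39.2 to 45.7). Nhp2 was found in 89.8% of PD100 cells (87.5 to 91.8) and 72.3% of PD800 cells (69.3 to 75.2). This draw lay low for PD800, at -3.42 SD of the draws, and the mean over all possible draws was 76.2%, beside 89.6% in PD100. For the other genes the draw lay within 1 SD of that mean. Naf1 was found in 6.51% and 2.67% of cells, Gar1 in 18.7% and 23.6%, and Dkc1 in 15.8% and 12.4%. Wrap53 was found in 4.18% and 2.56% and Shq1 in 4.18% and 3.22%, and Tert in 1 PD100 cell and no PD800 cell. No cell type that lacks these genes was present to measure the background from free RNA.

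**Figure D4:**
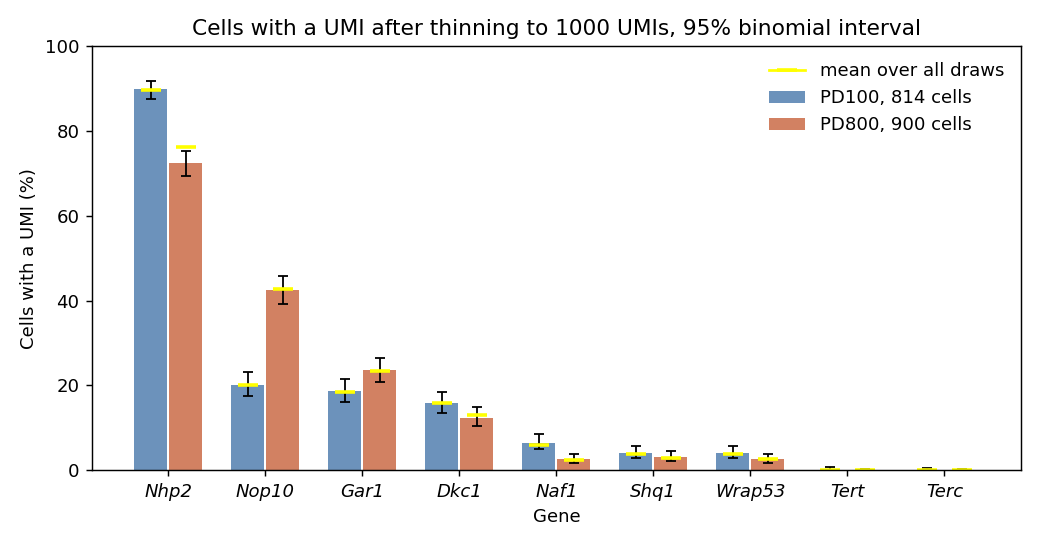
Share (%) of cells with at least 1 UMI of each gene after thinning every cell to 1000 UMIs, in 814 PD100 cells (blue) and 900 PD800 cells (orange), with 95% binomial intervals. Yellow marks are the mean over all possible draws. Nop10 stands at 20.1% and 42.4%, and the Nhp2 bar of PD800 (72.3%) lies under its mean of 76.2%.

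The higher Nop10 count in PD800 was seen in many cells rather than in a few. How much of it came from free RNA was not tested. Averaged over all draws, 57.2% of PD800 cells had no Nop10 UMI, 28.5% had 1, 10.5% had 2 and 2.94% had 3, against 80.0%, 16.0%, 3.25% and 0.634% of PD100 cells. In the single draw the highest count was 4 in PD800 and 3 in PD100. The variance of Nop10 was 1.16 times its mean in both libraries, where counting alone gives 1. At means of 0.246 and 0.596 UMIs per thinned cell this ratio says little about spread, and nothing is read from it. Without thinning it was 1.5 in PD100 and 1.8 in PD800. The most frequent Nhp2 count was 2 in PD100 (19.0% of cells) and 1 in PD800 (30.7%), at means of 3.04 and 1.54 UMIs per thinned cell. Its ratio of variance to mean was 1.57 and 1.3, a measure that rises with the mean, so that no difference in spread is read from it. Counted over the 4 core genes, 6.32% of thinned PD100 cells and 9.29% of PD800 cells showed none, 52.7% and 39.5% showed 1, and 32.6% and 38.8% showed 2. All 4 were seen together in 0.774% and 0.99% of cells, so that the make-up of single cells could not be followed.

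**Figure D5:**
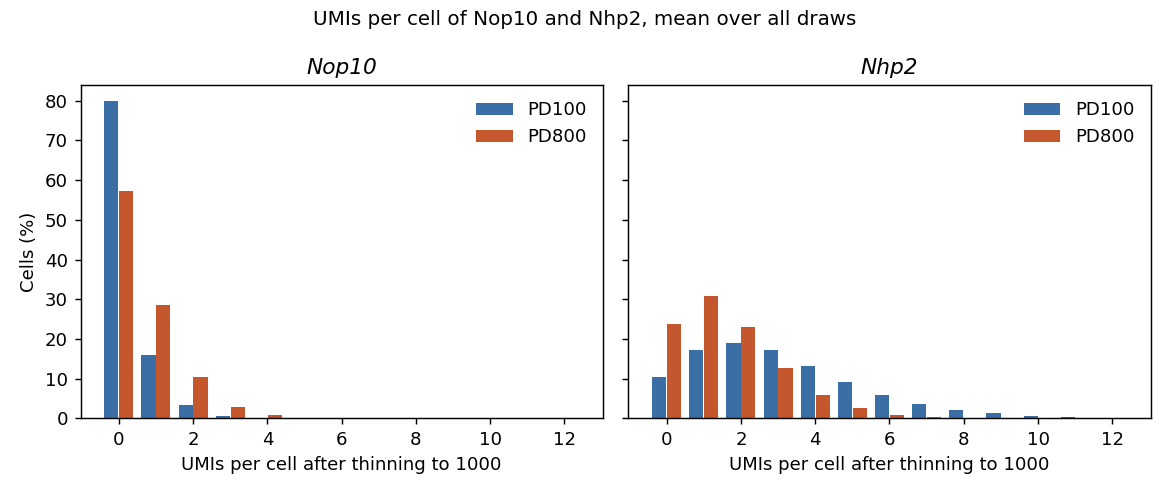
Share (%) of cells (vertical axis) by the number of UMIs per cell after thinning to 1000 UMIs, averaged over all possible draws, for Nop10 (left) and Nhp2 (right) in PD100 (blue) and PD800 (orange). Cells with no Nop10 UMI make up 80.0% of PD100 and 57.2% of PD800, and cells with no Nhp2 UMI 10.4% and 23.8%.

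The PD100 culture held cells with extraembryonic endoderm transcripts. At least 5 UMIs of the marker list were found in 40 PD100 cells (4.91%) and in no PD800 cell. In these cells Nhp2 was at 2080 CPM, against 3100 CPM in the other PD100 cells, a ratio of 0.67 (0.579 to 0.772). Dkc1 (ratio 0.553, 0.284 to 0.978) and Gar1 (0.494, 0.253 to 0.872) were lower there too, but each on 12 UMIs. Their intervals hold counting error only, and the upper end for Dkc1 lay near 1. Wrap53 had 0 UMIs there against 84 in the other cells, with 0.808 as the upper end of the interval of its ratio. The intervals of Nop10 (0.693, 0.4 to 1.12), Naf1 (0.409, 0.0832 to 1.22) and Shq1 (0.701, 0.141 to 2.13) included 1. Leaving these cells out gave log2 ratios of 1.28 for Nop10, -0.97 for Nhp2 and -1.47 for Naf1, beside 1.30, -0.95 and -1.43 with them. The mitochondrial share also differed between the libraries, and scaling without mitochondrial genes gave 1.35, -0.90 and -1.38.

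Genes of related pathways were described by lists set by name. Whether each gene of the assembly list serves H/ACA particles was not examined. All 8 assembly genes, among them Naf1 and Shq1, had log2 ratios below 0, as did 4648 of the 6984 tested genes, and their median was -0.84. They ran from -1.43 for Naf1 to -0.03 for Pih1d1, with 3 at least 2-fold lower (Naf1, Znhit6 at -1.15 and Rpap3 at -1.11) and none at least 2-fold higher, where 16.9% and 9.22% of all tested genes were. Ruvbl1 (-0.80) and Ruvbl2 (-0.87), the AAA+ ATPases that act with SHQ1 and the R2TP complex, lay between. Relative to the median of all genes, the list's median was -0.49 and 2 of the 8, Shq1 and Pih1d1, were above 0.

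The box C/D particles guide RNA methylation and share their assembly machinery with H/ACA particles. The 4 measured genes of their core had a median of -0.22, from -1.07 for Nop56 to -0.02 for Nop58, with Fbl, the methyltransferase, at -0.33 and Nhp2l1, related in sequence to Nhp2, at -0.11. Relative to the median of all genes their median was 0.12, so that its direction turned, and 3 of the 4 were above 0. Nhp2l1 went from 593 to 551 CPM. The ratio of Nhp2 to Nhp2l1 was 0.559 times as high in PD800 as in PD100 (0.511 to 0.611), so that the lower Nhp2 was not matched by its relative. Of 18 nucleolar ribosome biogenesis genes, 15 were below 0, 7 were at least 2-fold lower and 1, Wdr12 (1.37), was at least 2-fold higher, with a median of -0.81. The shares of all tested genes were 16.9% for 2-fold lower and 9.22% for 2-fold higher, and the list's median relative to all genes was -0.47. Nolc1, whose product Nopp140 binds H/ACA and C/D particles, was at -1.47, from 430 to 156 CPM.

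Among the 10 tested genes that process Terc or fold and transport telomerase, Parn, the nuclease that trims its 3′ end, was at -1.13, and Tgs1, which modifies its cap, at 0.60. Pinx1, a telomerase inhibitor, was at -1.12. The list's median was -0.48, with 2 genes at least 2-fold lower and none at least 2-fold higher, near the 16.9% and 9.22% of all tested genes. With a minimum of 200 UMIs per gene the median was 0.33, but only Ptges3 (0.33), Hsp90aa1 (0.50) and Hsp90ab1 (-0.57) were left. Parn, Tgs1 and Pinx1 were not among them, so that this value gives no direction for those genes. The 8 tested telomere-end binding genes had a median of -0.46, from Ctc1 at -1.19 to Ten1 at 0.53, with Terf1 at -0.58 and Terf2 at 0.11. Myc, a known activator of Dkc1 and of nucleolar genes, was at -2.07 (66.8 to 15.9 CPM), Mycn at -1.15 (215 to 96.9 CPM) and their partner Max at 0.04.

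The promoters of 3 core genes are shown because these genes differed in direction while sharing a short word near the start. RefSeq windows (GRCm38.p6) of 250 bases before to 50 after the start were matched for 7 of the 9 members, all but Terc and Naf1. The E-box CACGTG, the site of Myc with Max, was found in 1 of the 7 (Wrap53), beside 7.15% of all 32851 windows and 13% of the 5330 tested genes with a window. The word CGGAAG on either strand (CTTCCG on the other), part of the sites of ETS factors and looked for after the windows had been read, was found in 6 of the 7, all but Dkc1. It was also found in 42.2% of those tested genes and 16.9% of all windows. The 2 words do not overlap. In the sequences, written 5′ to 3′ on the gene's strand from 150 bases before the RefSeq start, capitals mark CGGAAG or CTTCCG. Nop10 is at chr2:112261776-112261950 on the plus strand, Nhp2 at chr11:51619623-51619759 on the plus strand, and Gar1 at chr3:129831372-129831546 on the minus strand.
Nop10: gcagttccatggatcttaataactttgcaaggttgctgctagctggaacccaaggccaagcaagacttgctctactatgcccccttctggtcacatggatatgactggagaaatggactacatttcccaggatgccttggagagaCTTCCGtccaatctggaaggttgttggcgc
Nhp2: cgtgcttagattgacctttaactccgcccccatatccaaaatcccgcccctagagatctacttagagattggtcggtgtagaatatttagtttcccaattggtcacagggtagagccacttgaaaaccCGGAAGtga
Gar1: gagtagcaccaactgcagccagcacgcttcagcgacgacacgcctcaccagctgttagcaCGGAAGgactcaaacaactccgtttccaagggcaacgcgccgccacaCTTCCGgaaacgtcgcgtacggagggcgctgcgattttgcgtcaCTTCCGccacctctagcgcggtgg
The word began 5 bases before the start of Nop10, and it occurred 3 times in Gar1. In Nhp2 it began 22 bases before the RefSeq start, but GENCODE places the start 38 bases farther upstream, so that by that annotation the word lies within the transcript. These genes were chosen for display with their ratios known, and nothing is read from the word about them.

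Position and sequence gave further context. Nop10 (chr2:112261926-112263269) had 5 tested genes within 1 Mb, with a median log2 ratio of -0.08 against its own 1.30. Nhp2 (chr11:51619735-51623714) had 14, with a median of -0.47 against -0.95. Gar1 (chr3:129824912-129831396) had 6, all of them above the median of all tested genes, with a median of 0.44 against its own 0.23. Wrap53 (chr11:69561758-69580255) lies head to head with Trp53, the p53 gene, and among its 37 tested neighbours the median was -0.85. Trp53 was at -0.97, and the ratio of Wrap53 to Trp53 was 1.3-fold higher in PD800 (0.918 to 1.84), which includes no difference. Naf1 (chr8:66860217-66890564) had 1 tested neighbour, and Dkc1 (chrX:75095854-75109777) had 14, with a median of -0.39.

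Reads of similar sequences could be counted with those of some members. Naf1 shared 22.8% of its 20-base words with Gm2027, a processed pseudogene that had no column in the tables, and each of the other members shared under 10% with any other gene. Dkc1 overlaps Mpp1 and Nhp2 overlaps Rmnd5b on opposite strands, and whether the counting used strand was not stated, so that reads of these partners may be included. Mpp1 had 75 UMIs and Rmnd5b 375 over both libraries, against 799 for Dkc1 and 9653 for Nhp2. Nop10, the gene with the highest ratio here, carried 1 repeated 20-base word among 1090, repeated meaning found in the transcripts of at least 50 genes. Shq1 carried 91, Dkc1 77 and Tert 43 such words, and the remaining members at most 1. The 2111 tested genes with 10 or more such words had a median of 0.15 relative to all genes, and those with fewer had -0.06.

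The genes nearest to Nhp2 in both libraries, by distance in log2 CPM, were Gm8797 (2880 and 1530 CPM), Eef1g (2790 and 1630 CPM) and Rack1 (3320 and 1670 CPM). Nearness over 2 libraries describes level and ratio only.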

How the data were processed

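The values deposited by the authors are raw UMI counts of each gene in each barcode, from the inDrops pipeline run on a GRCm38 transcriptome. The annotation release and use of strand are not given in the sources used here. The authors' cell filter was applied again (at least 1000 UMIs, at most 20% mitochondrial), and it kept somewhat more cells than the study did. Counts were summed per library and divided by the library total. Intervals were exact: Poisson for sums, conditional on the total (Clopper-Pearson) for ratios, and binomial for shares. A fold was read where both libraries together gave 50 UMIs or more. Cells were thinned without replacement (seed 1). Doublets were called with Scrublet in Scanpy 1.11.5 at an expected rate of 5% (14 PD100 and 8 PD800 cells) and kept. Python 3.11.15, NumPy 2.4.6, SciPy 1.17.1 and pandas 2.3.3 were used. The ratio intervals, the fold rule and the thinning were tested on simulated data, and the other steps were not. All 9 genes are named by the rule. Genes and lists were chosen with earlier results of these data known. Gene positions are from GENCODE M21.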

Additional observations from a re-analysis of the deposited data

Results flagged for a closer look

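The barcodes that the cell filter left out were used in none of the comparisons above, and they held signal of the same genes. They were 477 PD100 barcodes with 246800 UMIs and 766 PD800 barcodes with 458381 UMIs. In their sums the log2 ratio of PD800 to PD100 was 1.12 for Nop10 (66 and 267 UMIs), -0.83 for Nhp2 (702 and 733 UMIs) and -1.16 for Naf1 (18 and 15 UMIs). It was 0.38 for Gar1, -0.37 for Dkc1, -0.7 for Wrap53 and -0.1 for Shq1, each with a counting interval that included 0. These barcodes come from the same 2 libraries and are no replicate of them.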

How the results depend on the processing

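No paired analysis was possible because each group had 1 library, and for the same reason no replicate could be left out. Over 9 alternatives of cell filter, doublets, scaling and depth, the log2 ratio stayed at 1.28 to 1.64 for Nop10, -0.98 to -0.60 for Nhp2, -1.87 to -1.07 for Naf1, -0.66 to -0.18 for Dkc1, 0.06 to 0.57 for Gar1 and -0.93 to -0.25 for Wrap53, while Shq1 ran from -0.49 to 0.06. Median-of-ratios scaling, which shifts every ratio by the median of all genes to 0.0, gave -0.18 for Dkc1, 1.64 for Nop10, -0.60 for Nhp2 and 0.57 for Gar1. The list medians became -0.18 (members), 0.20 (H/ACA core), -0.49 (assembly), -0.14 (processing and trafficking), 0.12 (box C/D, now above 0), -0.47 (nucleolar) and -0.81 (Myc family). Scaling without mitochondrial genes moved the median of all genes to -0.29. Thinned sums gave -0.29 for all genes, -0.49 for assembly and -0.20 for processing and trafficking. In cells with 2000 to 4000 UMIs, Naf1 was at -1.87 and the members' median at -0.27. With a minimum of 200 UMIs the medians were 0.33 for processing and trafficking, -0.56 for the Myc family and -0.27 for all genes. Genes of low count no longer enter there. Only Ptges3, Hsp90aa1 and Hsp90ab1 were left of the processing list. Of the Myc family only Mycn (-1.15) and Max (0.04) were left, without Myc (-2.07). With no minimum, 2 members were at least 2-fold lower, Tert being added. The number at least 1.5-fold lower was 2 with median-of-ratios scaling, with scaling without mitochondrial genes and with a minimum of 200 UMIs. It was 4 in thinned sums and with no minimum. Without thinning, Nop10 was found in 36% and 71.6% of cells and Nhp2 in 96.6% and 93.7%. Thinned to 2000 UMIs, which left 465 and 651 cells, the shares were 33.8% and 64.7% for Nop10 and 97.0% and 93.4% for Nhp2. Nhp2 in PD800 was 76.4% with seed 2 and 76.5% without called doublets. Of 280 values under an alternative, 228 stayed within the interval or count limit. Depth left no direction for Tert, at 3 UMIs in all, and wide intervals for Naf1, Wrap53 and Shq1, at 71 to 135 UMIs per library.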
